A study of Mus musculus with 25 samples.

Results

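The Zic genes were followed in the mammillary neuroepithelium of mouse embryos, the ventricular wall of the posterior hypothalamus that gives rise to the mammillary body. Members were taken as the transcript clusters (the array's probe sets, 1 or more per gene) that carried a single Zic symbol. This gave 4 genes of 18820 measured, Zic1, Zic2, Zic4 and Zic5, on 6 transcript clusters of 28940 tested. The brightest cluster stood for its gene, and Zic4 and Zic5 each had 1 dimmer cluster besides.

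Total RNA of C57BL/6 embryos at E10.5 was measured on Affymetrix Mouse Gene 1.1 ST arrays, with 13 arrays labelled KO and 12 labelled WT, all biological replicates per the labels. The KO embryos were homozygous for a floxed Lhx5 allele (Lhx5 fl/fl) and the WT embryos carried the unaltered gene. In the floxed allele loxP sites lie in introns, no Cre was used on the arrayed embryos and the exons remain, so the Lhx5 cluster is no check of the labels. With an antibody that also sees LHX1, the study detected no LHX5 protein on sections of such embryos at a later stage. It concluded that their phenotype is hypomorphic, probably because the protein is made inefficiently. Its log2 level ran from 7.43 over a median of 7.95 to 8.60 on KO arrays and from 7.67 over 7.89 to 8.38 on WT arrays, with means of 7.92 and 7.97. At this stage the mutant mammillary region is not yet visibly smaller. The 8 marker genes of mammillary and hypothalamic neuroepithelium had mean levels of 7.85 to 8.45 on WT arrays and 7.72 to 8.01 on KO replicates 11 to 13. The median over all clusters was 4.69. Single markers differed widely, with WT means of 6.35 for Lhx1, 6.52 for Otp, 6.73 for Foxb1, 10.15 for Sox2 and 11.02 for Nes.

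The KO arrays were not a single set. The mean of KO replicates 1 to 10 equalled that of KO replicates 11 to 13 within 1e-04 on all 35542 probe sets with no missing cell (largest difference 6.33e-05, median 1.33e-06), so any difference between KO and WT rests on KO replicates 11 to 13 against the WT arrays. Differences were therefore fitted with a term for KO replicates 1 to 10, called the batch term here. Whether KO replicates 11 to 13 and WT were processed together was not tested. Levels were compared with WT over KO replicates 11 to 13 alone, and correlations were taken within WT (12 arrays) and within KO replicates 1 to 10 (10 arrays).

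Zic proteins are zinc finger transcription factors of the dorsal neural tube and neural crest, related to the Gli factors that carry the Sonic hedgehog (Shh) signal. Zic2 is also used very early at the anterior midline, and its loss is a cause of holoprosencephaly, in which the forebrain fails to divide. In much of the neural tube Shh comes from the ventral midline, while Wnt and BMP signals come from the dorsal side. The hypothalamus does not follow this in full. The study cites work in chick where BMP signals lead there to Wnt inhibition and to Tbx2. In the tuberal and mammillary regions of the chick Tbx2 then represses Shh. For the mouse the study cites Tbx3 in this role.

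In the genome the members lie as a pair of pairs, which is why their start regions are shown first. In RefSeq's GRCm38.p6 annotation Zic1 spans chr9:91358058-91365768 and Zic4 chr9:91365631-91389351. Zic1 is read from the minus strand and Zic4 from the plus strand, so they run away from each other, and their annotated extents overlap by 138 bases. Whether probes of either cluster lie in that overlap was not tested. Zic5 spans chr14:122459160-122465658 and Zic2 chr14:122475384-122480328, with 9725 bases between them. The 250 bases before the annotated start are printed 5′ to 3′ on the gene's own strand from RefSeq (GRCm38.p6), at chr9:91365769-91366018 (minus) for Zic1, chr9:91368722-91368971 (plus) for Zic4 and chr14:122465659-122465908 (minus) for Zic5. The Zic4 window belongs to a start inside the gene's full extent. Capitals mark matches to 6 motifs searched on both strands.
Zic1 promoter: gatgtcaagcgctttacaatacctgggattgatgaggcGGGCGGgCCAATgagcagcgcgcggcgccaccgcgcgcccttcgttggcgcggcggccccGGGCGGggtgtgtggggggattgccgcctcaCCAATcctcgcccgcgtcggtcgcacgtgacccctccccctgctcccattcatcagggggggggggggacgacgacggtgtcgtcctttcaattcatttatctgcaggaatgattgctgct
Zic4 promoter: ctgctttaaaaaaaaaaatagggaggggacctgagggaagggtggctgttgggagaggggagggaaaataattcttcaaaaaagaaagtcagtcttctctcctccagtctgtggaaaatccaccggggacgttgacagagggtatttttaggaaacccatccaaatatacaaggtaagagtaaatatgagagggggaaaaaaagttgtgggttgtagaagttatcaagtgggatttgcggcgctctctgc
Zic5 promoter: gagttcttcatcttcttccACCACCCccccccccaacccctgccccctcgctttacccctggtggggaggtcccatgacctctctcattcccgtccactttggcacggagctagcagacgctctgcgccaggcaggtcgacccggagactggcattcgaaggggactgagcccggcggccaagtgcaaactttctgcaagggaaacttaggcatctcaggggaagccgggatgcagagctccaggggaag

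The motifs were the GC box GGGCGG, the CCAAT box CCAAT, the TATA box TATAAA, the LIM-homeodomain core TAATTA, the Gli core ACCACCC and the TCF core CTTTGAT, and no match overlapped another. The Zic1 window held 2 GC boxes and 2 CCAAT boxes, motifs that 32.7% and 33.8% of 32851 promoters of this length also hold. The Zic5 window held 1 Gli core, found in 3.92% of promoters. No motif was found in the Zic4 window. TATAAA was in 12.4% of promoters, TAATTA in 4.84% and CTTTGAT in 3.21%. The base composition also differed, with 66.0% G and C in the Zic1 window, 62.4% in that of Zic5 and 44.4% in that of Zic4. A match to these letters is a description of the window only.

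None of the 4 Zic genes passed the test for a difference between KO and WT. With the batch term 0 of 4 were called at an adjusted p below 0.05 (limma, Benjamini-Hochberg over all clusters), where 0.0242% of all clusters were called, and 0 of 4 passed an unadjusted p below 0.05, where 10.3% of all clusters did. All 4 estimates lay below 0, as did 48.2% of all clusters, but these genes varied together and are not 4 separate observations. Every interval reached both sides of 0, so none of the genes is shown to be unchanged.

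Zic1, which with Zic4 is needed for cerebellar growth and marks dorsal neural progenitors, had a log2 level of 7.87 at the lowest, 8.95 at the median and 9.66 at the highest of the WT arrays. KO replicates 11, 12 and 13 were at 8.78, 8.58 and 8.64. All 3 lay inside the WT range, and the groups overlapped. The difference KO minus WT was -0.24 ± 0.25 (SE) on the log2 scale, with a 95% interval of -0.75 to 0.28 (adjusted p = 0.800, limma). As a fold this was 0.848, with an interval of 0.594 to 1.21.

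Zic2, the holoprosencephaly gene of the family, ran from 7.47 over a median of 8.92 to 9.32 on the WT arrays. KO replicates 11, 12 and 13 had Zic2 levels of 8.88, 8.62 and 8.44. These were again within the WT range. KO minus WT was -0.09 ± 0.27 (SE), with an interval of -0.64 to 0.47 (adjusted p = 0.950, limma), the estimate nearest to 0 of the 4. Without KO replicate 13 the Zic2 estimate was 0.02.

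For Zic4, the partner of Zic1 on the same stretch of chromosome, the WT arrays had a lowest level of 5.49, a median of 6.47 and a highest of 7.32. KO replicates 11, 12 and 13 stood at 6.26, 6.42 and 5.97, all below the WT median and above the lowest WT array. The difference was -0.28 ± 0.30 (SE), with an interval of -0.89 to 0.32 (adjusted p = 0.796, limma).

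Zic5, a neural crest regulator beside Zic2, was at 6.24 on the lowest, 7.74 at the median and 8.47 on the highest WT array. The values on KO replicates 11, 12 and 13 were 7.49, 7.47 and 7.59, a narrow band inside the WT range. KO minus WT was -0.18 ± 0.32 (SE), with an interval of -0.83 to 0.46 (adjusted p = 0.887, limma).

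**Figure D1:**
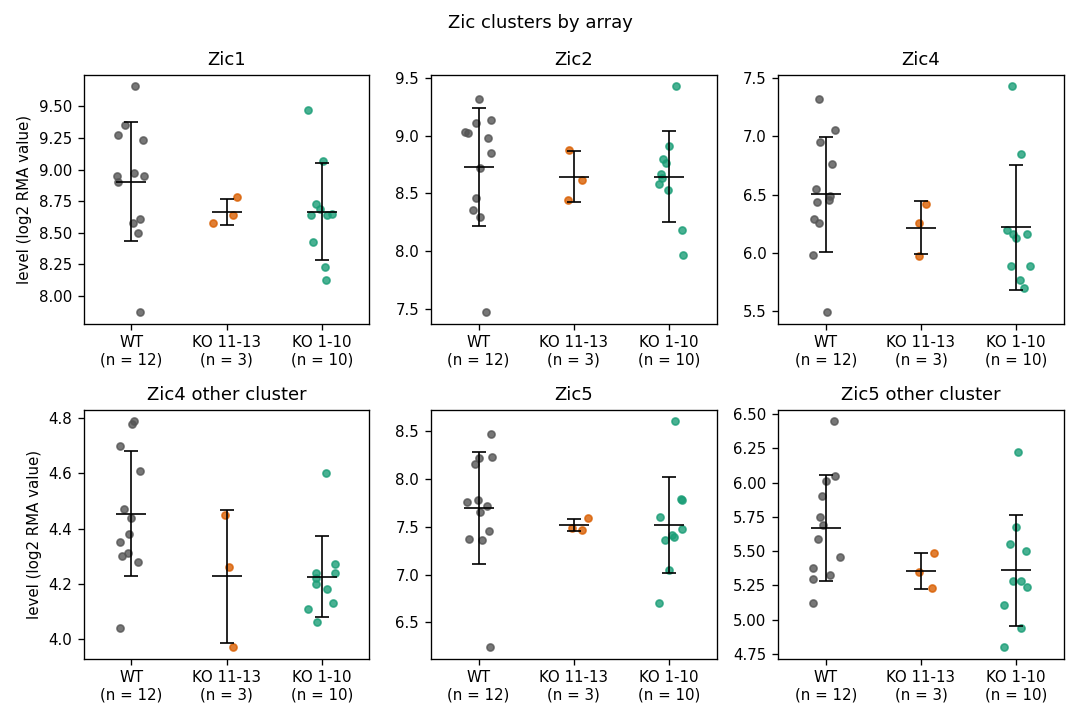
Level (y axis, log2 RMA value) of the 6 Zic clusters on each array (points), by WT (n = 12), KO replicates 11 to 13 (n = 3) and KO replicates 1 to 10 (n = 10), with mean and SD as horizontal bars. For Zic1, Zic2, Zic4 and Zic5 all 3 KO replicates 11 to 13 lie within the WT points, and the mean of KO replicates 1 to 10 equals theirs.

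In the exact permutation test over the 455 splits of KO replicates 11 to 13 and the WT arrays, the two-sided p was 0.391 for Zic1, 0.791 for Zic2, 0.336 for Zic4 and 0.569 for Zic5. The fit on genotype alone, which takes KO replicates 1 to 10 as further evidence, called 16.7% of all clusters. It called 0 of the 4 genes, with adjusted p-values (limma) of 0.297 for Zic1, 0.763 for Zic2, 0.290 for Zic4 and 0.543 for Zic5.

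The dimmer clusters differed from these in part. The other Zic4 cluster, close to the median brightness of the array, had a mean of 4.23 in KO and 4.45 in WT. That difference of -0.23 ± 0.12 (SE) reached an adjusted p of 0.0381 on genotype alone but of 0.546 once the batch term was included (limma), so only the former fit called it. Over the arrays of WT and KO replicates 11 to 13 its exact permutation p was 0.156. The other Zic5 cluster had means of 5.36 in KO and 5.67 in WT, a difference of -0.31 ± 0.23 (SE) that neither fit called (adjusted p = 0.684 and 0.125, limma).

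**Figure D2:**
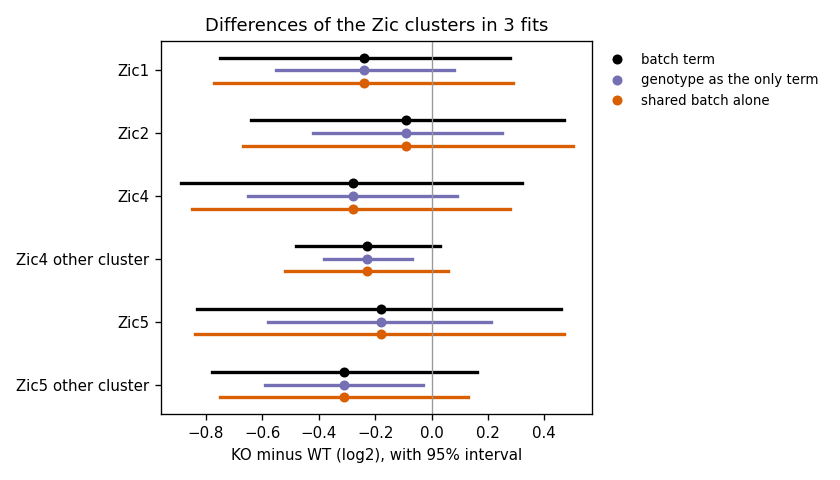
KO minus WT (x axis, log2) of the 6 Zic clusters with 95% intervals (lines) in the fit with the batch term, the fit with genotype as the only term and over KO replicates 11 to 13 and WT alone. The points of a cluster coincide, and intervals that leave out 0 occur with genotype as the only term for the other Zic4 cluster (-0.38 to -0.07) and the other Zic5 cluster (-0.59 to -0.03).

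The place of a cluster in the array's identifier order was checked for each member, since neighbours there mostly lie on 1 chromosome. Of the 8 nearest clusters with a gene, 8 lay on the gene's own chromosome for Zic1, Zic2 and the other Zic5 cluster, and 7 for Zic4. Around the brightest Zic5 cluster 0 of 8 lay on chromosome 14 and 8 on chromosome 11. Around the other Zic4 cluster 0 of 8 lay on chromosome 9 and 7 on chromosome 7. The annotation used here gives these clusters to Zic5 and Zic4, probe sequences were not used, and signal shared between like sequences was not tested. The pair of Zic5 clusters varied together across arrays, with a Pearson r of 0.79 in WT (rho = 0.92, permutation p = 0.00241 and 8e-05) and 0.91 in KO replicates 1 to 10 (rho = 0.81, permutation p = 0.00053 and 0.00748). For the pair of Zic4 clusters r was 0.41 in WT (rho = 0.49, permutation p = 0.183 and 0.110) and 0.29 in KO replicates 1 to 10 (rho = 0.16, permutation p = 0.350 and 0.656).

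The Zic genes varied widely between embryos of 1 genotype. The SD over WT arrays was 0.47 for Zic1, 0.51 for Zic2, 0.49 for Zic4 and 0.59 for Zic5 on the log2 scale, against a median of 0.14 over all clusters. Of all clusters 1.86% had a WT SD as large as that of Zic1, and 1.01% one as large as that of Zic5. From the lowest to the highest WT array the level spanned 3.46-fold for Zic1, 3.60-fold for Zic2, 3.56-fold for Zic4 and 4.71-fold for Zic5. Over KO replicates 1 to 10 the SDs were 0.39, 0.40, 0.53 and 0.50, with a median over all clusters of 0.15. In WT the dimmer clusters spread less, with an SD of 0.23 and a 1.68-fold span for the other Zic4 cluster. For the other Zic5 cluster, which sits among chromosome 14 neighbours, these were 0.38 and 2.51-fold. Of all clusters 3.21% had a WT SD as large as the latter. The Zic5 values above are those of the brightest cluster, which sits among chromosome 11 neighbours.

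The same embryos were highest or lowest for all 4 Zic genes, each taken by its brightest cluster. The dimmer clusters departed from this in part. The other Zic4 cluster was lowest on WT replicate 10 and highest on WT replicate 4, and among KO replicates 1 to 10 highest on replicate 3. The other Zic5 cluster was lowest on WT replicate 8. WT replicate 11 was the lowest and WT replicate 1 the highest WT array for Zic1, Zic2, Zic4 and Zic5. Among KO replicates 1 to 10, replicate 9 was the lowest and replicate 6 the highest for all 4. At replicate 6 Zic1 reached 9.47, Zic2 9.43, Zic4 7.43 and Zic5 8.61. The mean of KO replicates 1 to 10 equals that of the other KO arrays, so these levels cannot be set against the WT range. In bulk tissue fewer cells of a type and less RNA per cell cannot be told apart.

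**Figure D3:**
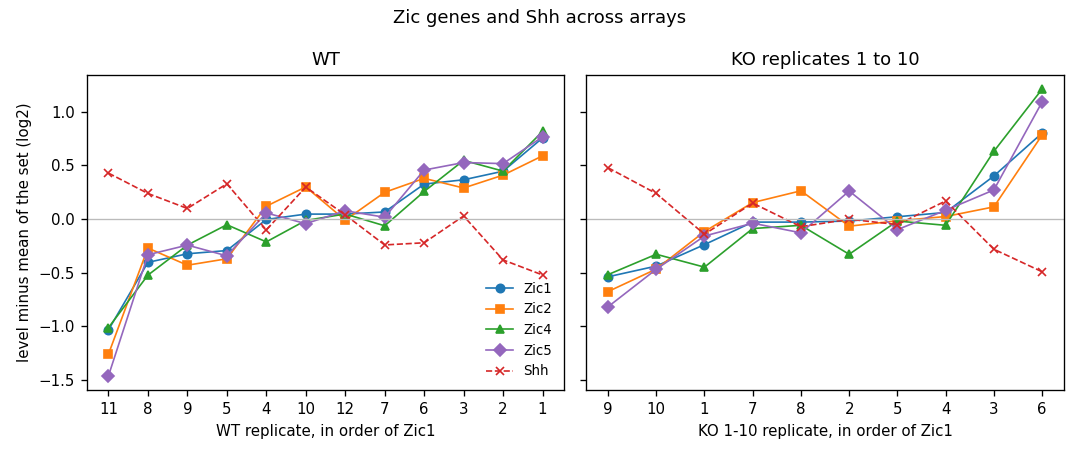
Level of Zic1, Zic2, Zic4, Zic5 and Shh minus the mean of its set (y axis, log2) on each WT array (left) and each of KO replicates 1 to 10 (right), with arrays (x axis, replicate number) in the order of Zic1. The Zic lines climb together from WT replicate 11 to WT replicate 1 and from KO replicate 9 to KO replicate 6, while Shh runs from high to low.

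Every pair of Zic genes was positively correlated across arrays within both sets. Over the 12 WT arrays Pearson's r was 0.98 for Zic1 and Zic5, 0.96 for Zic1 with Zic2 and with Zic4, 0.95 for Zic2 and Zic5, 0.94 for Zic4 and Zic5 and 0.87 for Zic2 and Zic4. Spearman's rho lay between 0.84 and 0.94. Over KO replicates 1 to 10 r was 0.95 for Zic1 with Zic5 and with Zic4, 0.91 for Zic1 and Zic2, 0.90 for Zic2 and Zic5, 0.85 for Zic4 and Zic5 and 0.82 for Zic2 and Zic4, with rho between 0.70 and 0.92. All 12 correlations passed the permutation test after adjustment over the 12, with adjusted p-values of 3e-05 to 0.00306 for r and 0.00036 to 0.0309 for rho. The smallest p that 100000 permutations can give is 1e-05.

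The WT correlations did not rest on the extreme arrays. Without the 2 arrays farthest from the median of the first gene, r in WT stayed between 0.76 and 0.97, with permutation p-values of 0.00025 to 0.00956. In KO replicates 1 to 10 r without the 2 farthest arrays was 0.87 for Zic1 and Zic4 (permutation p = 0.0101) and 0.85 for Zic1 and Zic5 (permutation p = 0.0106). For Zic1 and Zic2 it was 0.71 (permutation p = 0.0643), for Zic2 and Zic4 0.51 (0.193), for Zic2 and Zic5 0.56 (0.151) and for Zic4 and Zic5 0.55 (0.168). So these 4 stayed positive but did not reach a p below 0.05 on the smaller set. That alone does not show that they rest on the arrays left out. Without KO replicate 6 r was 0.62 for Zic2 and Zic4 and 0.63 for Zic4 and Zic5, each with an adjusted permutation p of 0.0828. With embryo sex taken out, r was between 0.83 and 0.97 in WT and between 0.84 and 0.95 in KO replicates 1 to 10, and all 12 passed. With the other Zic5 cluster in place of the brightest, an alternative chosen after the data were seen, r was 0.86, 0.74 and 0.85 with Zic1, Zic2 and Zic4 in WT and 0.89, 0.88 and 0.84 in KO replicates 1 to 10, with adjusted permutation p-values up to 0.0063.

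Among all genes the nearest to each Zic gene were mostly the others. Likeness was the lower of the r in WT and the r in KO replicates 1 to 10, over 10665 genes brighter than the median cluster. The 3 genes most like Zic1 were Zic5, Zic4 and Zic2, those most like Zic5 were Zic1, Zic2 and Zic4, and the first 2 for Zic2 and for Zic4 were Zic1 and Zic5. Beside the family stood Nkd1 and Rspo3. Nkd1, an intracellular inhibitor of Wnt signalling, had an r of 0.95 in WT and 0.82 in KO replicates 1 to 10 with Zic1, of 0.92 and 0.90 with Zic2, and of 0.91 and 0.83 with Zic5. Rspo3, a secreted protein that strengthens Wnt signalling, stood at 0.80 and 0.85 with Zic1 and 0.83 and 0.84 with Zic4. Its KO values leaned on few arrays: without the 2 farthest they were 0.57 with Zic1 and 0.29 with Zic4, and Rspo3 was far above the other KO arrays on replicate 6 (7.45). The lists were completed by the forkhead gene Foxk1 for Zic2 (0.90 and 0.83), Slc22a23, of a family of organic ion transporters, for Zic4 (0.81 and 0.82) and Prr11 for Zic5 (0.82 and 0.88). These values describe shared variation over arrays and carry no test.

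The regulators were taken by side of the neural tube. The list of dorsal regulators (18 of 19 listed genes measured) holds Wnt, BMP and R-spondin ligands and dorsal transcription factors, that of ventral regulators (16 of 19) holds Shh, its targets and floor plate genes, and that of anterior and optic regulators (11 of 12) holds Six3, Six6, Rax, the Vax and Fezf genes and others. Over all genes, the Zic genes left out (18814, and 18813 in WT), the share with an r above 0 was 54.4% for Zic1, 53.7% for Zic2, 56.2% for Zic4 and 55.2% for Zic5 in WT, and 47.9%, 49.4%, 45.2% and 50.1% in KO replicates 1 to 10.

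With dorsal regulators the Zic genes tended to be high on the same arrays. Between 13 and 15 of 18 had a positive r, depending on the Zic gene and the set. The median r over the list was 0.56, 0.40, 0.60 and 0.50 in WT for Zic1, Zic2, Zic4 and Zic5, against medians over all genes of 0.05, 0.04, 0.06 and 0.06. In KO replicates 1 to 10 the list medians were 0.45, 0.33, 0.36 and 0.37, against -0.02, -0.01, -0.04 and 0.00 over all genes. Over only the genes brighter than the median cluster, the medians were higher in WT, at 0.17, 0.19, 0.15 and 0.19. In KO replicates 1 to 10 they were -0.02, -0.04, -0.06 and 0.00.

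With ventral regulators the sign was mostly the opposite. In WT 3 of 16 had a positive r with each Zic gene and in KO replicates 1 to 10 4 of 16, below the shares over all genes. The list medians in WT were -0.27, -0.24, -0.29 and -0.27 for Zic1, Zic2, Zic4 and Zic5, and -0.52, -0.39, -0.49 and -0.60 in KO replicates 1 to 10. The genes within a list share arrays and vary together, so these counts have no test. With anterior and optic regulators the medians lay nearer to 0, between -0.28 and 0.18. There Pax6, a homeobox gene of the eye and forebrain, had the highest mean r with all 4 Zic genes (0.26 to 0.42 in WT and 0.42 to 0.79 in KO replicates 1 to 10). Rax, a homeobox gene of the eye field and hypothalamus, had the lowest (-0.53 to -0.36 and -0.67 to -0.31).

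**Figure D4:**
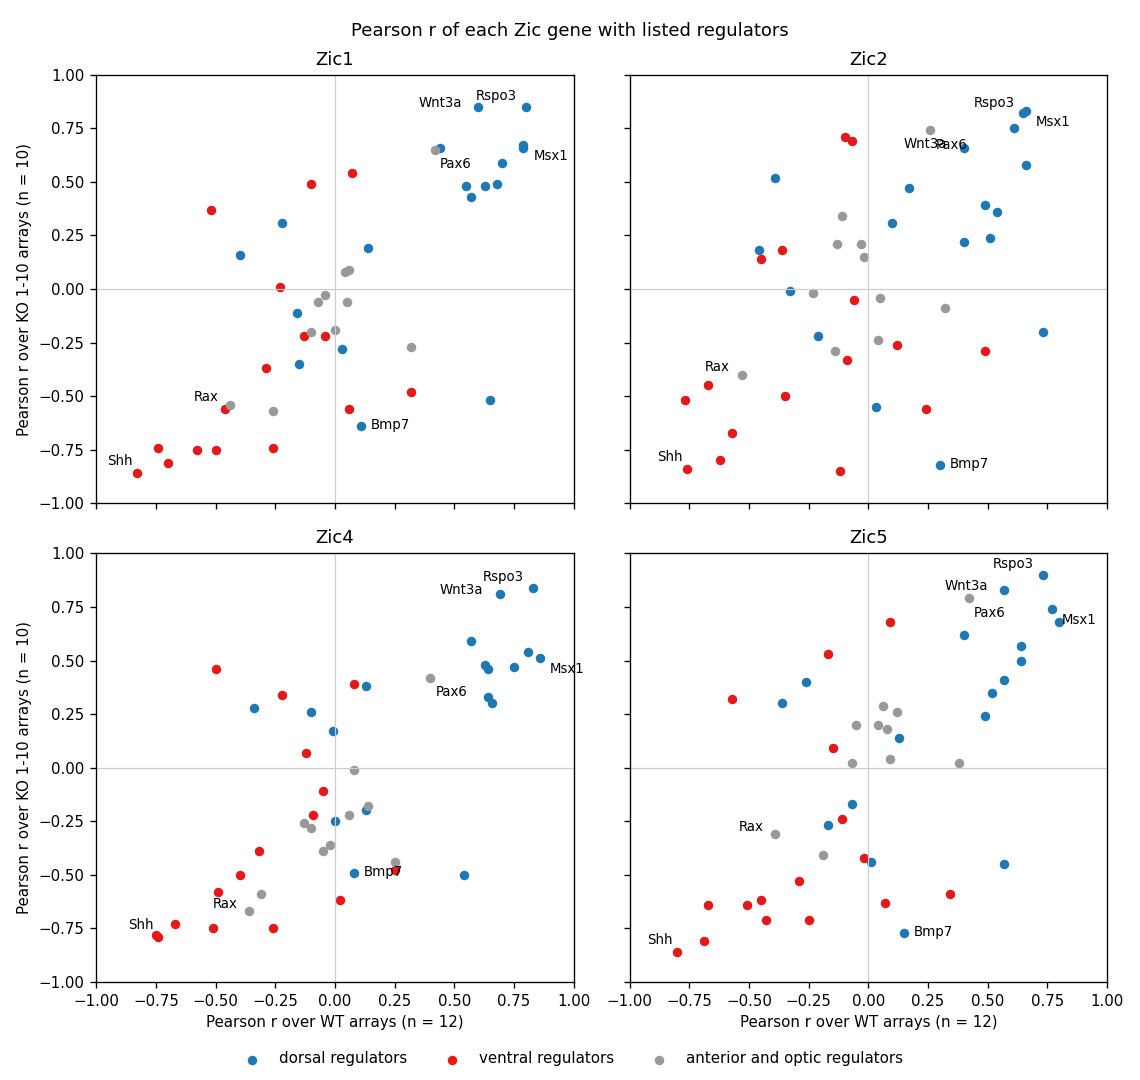
Pearson r of each Zic gene with each regulator over the WT arrays (x axis, n = 12) and over KO replicates 1 to 10 (y axis, n = 10), 1 point per regulator, coloured by list. Dorsal regulators lie more to the upper right, with Rspo3 at 0.80 and 0.85 for Zic1, and ventral ones more to the lower left, with Shh at -0.83 and -0.86 for Zic1. Both lists have members elsewhere, such as Bmp7 at 0.11 and -0.64 and Olig2 at 0.07 and 0.54 for Zic1.

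Shh, the ventral signal itself, was the ventral regulator with the lowest mean r for each of the 4 Zic genes. In WT its r was -0.83 with Zic1 (rho = -0.85), -0.76 with Zic2 (rho = -0.78), -0.74 with Zic4 (rho = -0.64) and -0.80 with Zic5 (rho = -0.85). In KO replicates 1 to 10 it was -0.86 (rho = -0.66), -0.84 (rho = -0.64), -0.79 (rho = -0.60) and -0.86 (rho = -0.61). Ranked by the weaker of both values among 10662 genes brighter than the median cluster, Shh had the most negative r with Zic1 and with Zic5, was in place 2 for Zic4 and in place 4 for Zic2. On the WT arrays Shh itself ran from 8.79 on replicate 1 to 9.74 on replicate 11, which were the highest and the lowest arrays for the Zic genes. Of KO replicates 1 to 10 Shh was lowest on replicate 6 (9.01) and highest on replicate 9 (9.98).

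Of the 8 Shh correlations 5 passed the permutation test, narrowly, and 3 did not, namely both of Zic4 and that of Zic2 in KO replicates 1 to 10. Adjusted over all 360 pairs of a Zic gene and a regulator in both sets, p for r was 0.0497 in WT and in KO replicates 1 to 10 for Zic1, 0.0498 and 0.0579 for Zic2, 0.0665 and 0.0622 for Zic4, and 0.0497 and 0.0498 for Zic5. For rho the adjusted permutation p was 0.0528 to 0.154 in WT and 0.198 to 0.253 in KO replicates 1 to 10. Without the 2 farthest arrays r in WT was -0.71, -0.78, -0.49 and -0.72 for Zic1, Zic2, Zic4 and Zic5. In KO replicates 1 to 10 it was -0.59, -0.44, -0.36 and -0.48.

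**Figure D5:**
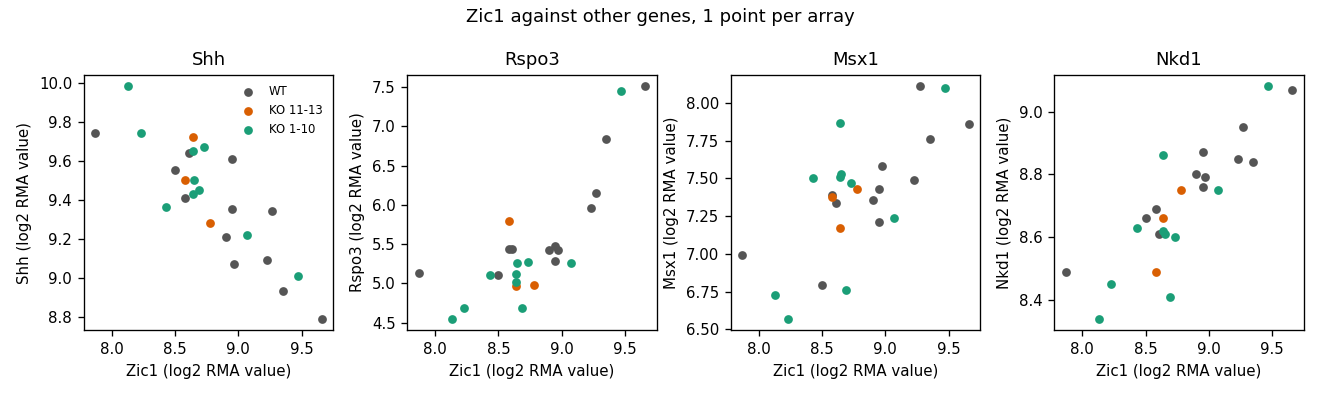
Level of Shh, Rspo3, Msx1 and Nkd1 (y axes, log2 RMA value) against that of Zic1 (x axes, log2 RMA value), 1 point per array, coloured by set (WT, n = 12, KO replicates 11 to 13, n = 3, KO replicates 1 to 10, n = 10). Shh falls as Zic1 climbs in both larger sets, Nkd1 follows Zic1 closely, and Rspo3 is at 7.45 on KO replicate 6, apart from the other KO arrays.

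Among dorsal regulators Rspo3 had the highest mean r with Zic1, Zic4 and Zic5, and Msx1, a homeobox gene of the dorsal midline that responds to BMP signals, with Zic2. For Zic5 and Rspo3 r was 0.73 in WT (rho = 0.74) and 0.90 in KO replicates 1 to 10 (rho = 0.91), with adjusted permutation p-values for r of 0.102 and 0.0252, the latter the smallest of the 360. For Zic2 and Msx1 it was 0.66 in WT (rho = 0.67, adjusted permutation p = 0.122) and 0.83 in KO replicates 1 to 10 (rho = 0.75, adjusted permutation p = 0.0497). Without the 2 farthest arrays the r of Zic5 and Rspo3 was 0.83 and 0.81, and that of Zic2 and Msx1 was 0.67 and 0.72, whereas for Rspo3 it was 0.81 and 0.57 with Zic1 and 0.84 and 0.29 with Zic4. Not all dorsal ligands ran this way. Bmp7 had the lowest mean r with Zic1, Zic4 and Zic5, between 0.08 and 0.15 in WT and between -0.77 and -0.49 in KO replicates 1 to 10. Wnt1 was lowest with Zic2, at 0.03 and -0.55. Whether a correlation differed between WT and KO replicates 1 to 10 was not tested.

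In all 19 of the 360 pairs passed the adjusted threshold, and 88 had an unadjusted permutation p below 0.05. The 12 positive ones were with Rspo3, Rspo1, Msx1 and Wnt3a, and the 7 negative ones with Shh, Nkx2-4, a ventral hypothalamic homeobox gene, and Ferd3l, a floor plate factor. Rspo1, another R-spondin, and Wnt3a, a Wnt ligand of the roof plate, were singled out after their values were seen. The Wnt3a cluster was dim, with means of 3.97 in WT and 3.87 in KO, below the median of 4.69 over all clusters. These calls were fragile. By Spearman's rho 0 of 360 passed (84 at an unadjusted permutation p below 0.05, smallest adjusted p 0.0522), and 0 passed with embryo sex taken out (71 unadjusted). There were 4 male and 8 female embryos in WT, 1 and 2 in KO replicates 11 to 13, and 7 and 3 in KO replicates 1 to 10.

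Markers of other tissues were set against the Zic levels. Over the 4 erythroid markers measured, the mean level ranged from 10.43 to 11.49 on WT arrays and from 10.18 to 11.47 on KO replicates 1 to 10. Its r with the Zic genes was -0.75 to -0.67 in WT and -0.22 to -0.15 in KO replicates 1 to 10. The 5 surface ectoderm markers had mean levels of 6.05 to 6.84 and 6.14 to 7.12, with r from -0.48 to -0.38 and from -0.82 to -0.68. For the 3 neuronal markers the mean levels were 7.71 to 9.44 and 7.73 to 9.16, with r from 0.49 to 0.77 and from -0.11 to 0.17. For endothelial markers r was 0.54 to 0.65 in WT (rho -0.11 to 0.08) and -0.43 to -0.18 in KO replicates 1 to 10. For cranial mesenchyme and neural crest r was 0.32 to 0.45 and -0.53 to -0.18. The neuroepithelium list had r from 0.31 to 0.50 and from -0.18 to 0.28. Across the 6 marker lists and the array median, 0 of 56 correlations passed the permutation test after adjustment (smallest adjusted p 0.0592). Their part in the Zic correlations was not tested.

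The lists themselves were also compared between KO and WT. With the batch term 0 genes of any list were called (limma). The median difference was -0.08 for dorsal regulators (6 higher and 12 lower), 0.14 for ventral regulators (9 higher and 7 lower) and -0.73 for anterior and optic regulators (0 higher and 11 lower), against 0.01 over all clusters. With genotype as the only term, which called 16.7% of all clusters, 2 dorsal regulators, Bmp7 and Bmp6, were called higher. That fit called 5 ventral regulators higher and 4 lower, and 7 anterior and optic regulators lower. The nearest to a call with the batch term were Nkx2-4 (-0.72 ± 0.20 (SE)) and Six3 (-1.06 ± 0.29 (SE)), a homeobox gene of the anterior forebrain that is also a holoprosencephaly gene, each with an adjusted p of 0.179 (limma). Shh had a difference of 0.19 ± 0.17 (SE) with an adjusted p of 0.757 (limma).

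Relatives and partners of the Zic proteins held no called gene in the fit with the batch term. With genotype alone, which called 16.7% of all clusters, Six3 and Glis3 were called lower (adjusted p = 0.00037 and 0.0288, limma). Nodal, a TGF-beta family ligand, was called higher (adjusted p = 0.019, limma). These were 1 of 14 holoprosencephaly genes in each direction and 1 of 6 Gli and Glis genes. The Nodal means of 3.28 in WT and 3.51 in KO lay below the median of 4.69 over all clusters. Of 14 holoprosencephaly genes measured 6 had a higher and 8 a lower mean in KO, with a median difference of -0.03. Of the 6 Gli and Glis genes, the closest zinc finger relatives, 1 was higher and 5 lower, with a median of -0.11, and Glis3 had the smallest p (-0.44 ± 0.23 (SE), adjusted p = 0.510, limma). The 7 Zic protein partners, among them Mdfi and Ctnnb1 (the Wnt effector beta-catenin), had a median of -0.08.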

How the data were processed

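Expression in the mammillary neuroepithelium was measured on 25 arrays, 1 per sample, grouped by the labels as KO or WT. The deposited values were log2 expression values that the authors made by robust multiarray averaging (RMA), with Affymetrix Expression Console 1.0, affy and R 2.7.0 named in the submitters' processing notes. In 10 columns some deposited cells were not log2 values, and 14 cells above 14 were set missing, 0 of them in a Zic cluster. The other values ran from 1.32 to 13.6 and array medians from 4.64 to 4.76. Any adjustment between batches is not given in the sources used here. The number of arrays limits the precision.

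Of 35556 probe sets, 6616 were dropped because their identifiers precede the first annotated one. Of the 28940 clusters tested, 21218 had 1 gene symbol, 1881 several and 5841 none. By Entrez number 21185 matched a RefSeq gene of GRCm38.p6.

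Genotype and the batch term were fitted to each cluster with limma 3.58.1 in R 4.3.3, two-sided, with Benjamini-Hochberg adjustment over all clusters, called below 0.05. The median standard error was 1.65 times that with genotype alone. Correlations were tested two-sided with 100000 permutations in Python 3.11.15 with numpy 2.4.6, and figures drawn with matplotlib 3.10.9. The fits and correlations were tested on simulated data. Embryo sex was read from Xist and Y-linked genes.

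Named genes were the members, Lhx5, up to 4 genes of each list with the smallest p, per member and list the highest and lowest mean r, and the 5 genes most like each member. The members, the lists and the batch term were chosen with earlier results of these data known. Same-numbered KO and WT arrays correlated at -0.33 to 0.43 (4 of 12 above 0.1) after removal of group means, and were treated as unpaired. The alternatives were genotype alone, a replicate block, repeated quantile normalization, centred arrays, dim clusters left out, array weights, limma-trend, WT with KO replicates 11 to 13 alone, embryo sex, Spearman's rho and each array left out. Those for the regulator pairs and the other Zic5 cluster were chosen after the data were seen.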

Additional observations from a re-analysis of the deposited data

Results flagged for a closer look

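In the 13 genes or clusters examined for single arrays over KO replicates 1 to 10, a set of 10 arrays, 2 arrays stood farther from the others than the critical value allows, and chance gives about 1 in 20 groups. The other Zic4 cluster was at 4.60 on KO replicate 3, above the remaining KO arrays by 0.611 of the whole range (critical value 0.466). Rspo3 was at 7.45 on KO replicate 6, the array on which all 4 Zic genes were highest, by 0.752 of the range.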

How the results depend on the processing

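The differences KO minus WT of Zic1, Zic2, Zic4 and Zic5 were below 0 and not called with genotype alone, repeated quantile normalization, centred arrays, dim clusters left out, array weights, limma-trend, WT with KO replicates 11 to 13 alone and embryo sex as a covariate. With the replicate block beside the batch term they turned to 0.27, 0.65, 0.32 and 0.48 (adjusted p 0.669 to 0.896, limma), and the cause was not tested, since the numbers do not pair the arrays. With each array left out they ran from -0.33 to -0.17 for Zic1, from -0.20 to 0.02 for Zic2, from -0.38 to -0.16 for Zic4 and from -0.32 to -0.11 for Zic5. Zic2 stood at 0.02 without KO replicate 13.

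The 7 clusters called with the batch term became 4825 with genotype alone, 0 with the replicate block (2354 at an unadjusted p below 0.05, limma), 1 after repeated quantile normalization, 12 with centred arrays, 4 with dim clusters left out and 31 with array weights. With single arrays left out 0 to 26 were called: 19 without KO replicates 3, 8 or 12, 11 without KO 7, 17 without KO 11, 0 without KO 13 (1942 unadjusted), 4 without WT 1 and 26 without WT 10.

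The r of each Zic pair kept its sign and its call under Spearman's rho, centring, embryo sex and the other Zic5 cluster. With each array left out r in WT ran from 0.93 to 0.97 for Zic1 and Zic2, 0.94 to 0.98 for Zic1 and Zic4, 0.98 to 0.99 for Zic1 and Zic5, 0.77 to 0.90 for Zic2 and Zic4, 0.88 to 0.97 for Zic2 and Zic5 and 0.92 to 0.96 for Zic4 and Zic5. In KO replicates 1 to 10 these ranges were 0.82 to 0.94, 0.88 to 0.97, 0.90 to 0.97, 0.62 to 0.86, 0.80 to 0.95 and 0.63 to 0.93. The calls of Zic2 and Zic4 (0.62) and of Zic4 and Zic5 (0.63) were lost without KO replicate 6.

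The 19 regulator pairs became 0 by Spearman's rho, 12 with centred arrays, 0 with embryo sex taken out, 19 with a second random seed and 22 with the other Zic5 cluster. With single arrays left out 0 to 28 were called: 0 without KO replicates 2, 7, 8, 9 or 10, 7 without KO 3, 6 without KO 4, 5 or 6, 1 without WT 1, 2, 4, 5, 6, 8 or 9, and 5 without WT 11. At unadjusted permutation p below 0.05 there were 76 to 104 with single arrays left out. Most adjusted permutation p-values of the 19 called pairs lay between 0.0497 and 0.0498, so a small shift moved many at once. With 3 arrays behind the KO mean, the intervals of the Zic differences reached folds of 0.539 to 1.38.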
